A study of Mus musculus with 5 samples.

Results

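Ckm, Ckmt2, Mb and Actn3 are muscle genes of energy supply and of fast fibres, and they made up 4 of the 4743 genes with values in this RNA sequencing series. They were taken by gene symbol and had been selected on their Noggin-deficient against wild type differences in these same 5 libraries, so those differences are given as descriptions and carry no test. The samples came from forelimb muscle of E15.5 embryos of the C57BL/6 mouse strain, 3 of them labelled Noggin-deficient and 2 labelled wild type control. Noggin is a secreted antagonist of bone morphogenetic proteins. Allele, sex, litter and any pooling of embryos are not given in the labels, so the spread between samples of a group may be technical.

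Creatine kinases move a phosphate group between ATP and creatine, which buffers the energy supply of contracting muscle. Ckm encodes the cytosolic muscle enzyme, which is bound in part to the sarcomere, and Ckmt2 the sarcomeric mitochondrial enzyme, which charges creatine at the site of ATP production and is also found in heart and brown fat. Myoglobin, from Mb, binds oxygen in heart and in oxidative skeletal fibres, and alpha-actinin-3, from Actn3, crosslinks actin at the Z-disc of fast fibres. In mouse limbs these genes are switched on as muscle fibres differentiate, and several carry binding sites for myogenic basic helix-loop-helix and MEF2 factors.

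The deposited values are decimals from 0, in a unit normalized by the authors and not named in the sources used here. Their sums over the listed genes ran from 92210.3 to 93694.6 in the Noggin-deficient libraries and from 100792.2 to 102783.5 in the wild type libraries. The number of reads behind a value is unknown. Nog itself was at 0.49, 0.42 and 0.42 in the libraries labelled Noggin-deficient and at 2.0 and 1.99 in those labelled wild type. Of 20 skeletal muscle markers 12 had values, among them Acta1, of skeletal actin, with group means of 1607 and 2346 for Noggin-deficient and wild type. Myod1, Myog, Myf5 and Pax7 were not analysed here. Of the 3913 genes that passed the minimum value, 98.0% were called different by limma and 99.3% had groups that did not overlap, so the tables hold genes picked for a difference between these samples and a call is nothing particular to any of them. Groups that did not overlap were lower in Noggin-deficient tissue for 61.3% of the tested genes and higher for 38.0%.

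Sequence in front of the transcription start is shown for the 3 genes with an entry in the RefSeq promoter table (GRCm38.p6), because these 3 differed in direction. Each stretch is 5′ to 3′ on the gene's strand, and capitals mark the E-box CANNTG, the letters bound by myogenic basic helix-loop-helix factors, which read the same way on both strands. The Ckm stretch is chr7:19410844-19411024 on the plus strand, shortened to 181 bases because the first annotated exon of the gene begins there. The Ckmt2 stretch is chr13:91876886-91877135 on the minus strand. The Mb stretch is chr15:77022788-77023037 on the minus strand, the one of 3 listed starts whose 250 bases overlap no annotated exon.
Ckm: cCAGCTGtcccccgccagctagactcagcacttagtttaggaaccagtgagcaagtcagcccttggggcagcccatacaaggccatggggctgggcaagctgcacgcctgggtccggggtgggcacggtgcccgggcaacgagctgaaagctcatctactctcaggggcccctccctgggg
Ckmt2: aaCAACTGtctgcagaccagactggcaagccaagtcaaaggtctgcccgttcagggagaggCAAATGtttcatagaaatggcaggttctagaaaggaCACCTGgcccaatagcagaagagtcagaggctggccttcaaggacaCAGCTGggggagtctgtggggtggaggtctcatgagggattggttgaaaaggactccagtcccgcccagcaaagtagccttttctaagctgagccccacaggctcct
Mb: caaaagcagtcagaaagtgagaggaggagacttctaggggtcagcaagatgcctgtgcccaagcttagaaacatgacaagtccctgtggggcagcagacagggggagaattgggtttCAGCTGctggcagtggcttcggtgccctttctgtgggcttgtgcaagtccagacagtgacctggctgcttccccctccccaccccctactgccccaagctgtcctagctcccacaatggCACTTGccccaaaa

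Within the 250 bases before the start, Ckm held 1 E-box, Ckmt2 4 and Mb 2. The core CAGCTG, which is itself a CANNTG, occurred in each of the 3 windows shown, 249 bases before the listed start in Ckm, 107 in Ckmt2 and 133 in Mb. Of 32851 promoters of the same length, 66.2% held a CANNTG and 13.0% a CAGCTG on either strand. The letters TATAAA, found in 12.4% of promoters on either strand, did not occur in these windows. Of the other starts listed for Mb, 1 had a window with 2 E-boxes and no CAGCTG, and 1 a window with 3 E-boxes that included the same CAGCTG.

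Ckm had the highest values of the 4 genes and the smallest standard error of the log2 difference. Its values were 158.62, 167.08 and 158.49 in the Noggin-deficient libraries and 341.59 and 339.35 in the wild type libraries. The groups lay far apart, and the second Noggin-deficient library was the highest of its group. The Noggin-deficient mean of 161.4 ± 4.92 (SD, n = 3) was 47.4% of the wild type mean of 340.5 ± 1.58 (SD, n = 2). On the scale of log2(value + 0.25), used for every log2 value here, the difference was -1.08 (SE 0.033), and 6.34% of the tested genes had a lower value of this difference. An antisense gene, A930016O22Rik, overlaps Ckm on the opposite strand and was listed at 0.30 to 0.69 over the 5 libraries. The sources used here do not say whether counting used strand.

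Ckmt2 showed the largest difference of the 4 genes in either direction. Its values were 3.25, 2.56 and 2.83 in the Noggin-deficient libraries and 12.4 and 11.41 in the wild type libraries. The highest Noggin-deficient value was well under the lowest wild type value. The Noggin-deficient mean of 2.88 ± 0.348 (SD, n = 3) was 24.2% of the wild type mean of 11.9 ± 0.70 (SD, n = 2), a log2 difference of -1.96 (SE 0.091). Only 46 of the 3913 tested genes had a lower log2 difference. None of the 75 other tested genes on the muscle energy and fibre lists described below had one. The gene 1700119I11Rik overlaps Ckmt2 on the opposite strand and was not analysed here.

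Mb and Actn3 stood on the other side. The values of Mb were 8.25, 7.51 and 7.78 in the Noggin-deficient libraries and 5.15 and 5.94 in the wild type libraries. The groups did not overlap, but the wild type libraries differed between themselves, with a coefficient of variation of 10.1% against 4.77% among the Noggin-deficient ones. The means were 7.85 ± 0.374 (SD, n = 3) and 5.55 ± 0.559 (SD, n = 2), a log2 difference of 0.48 (SE 0.068), and 16.9% of the tested genes had a higher one. Apol6 and the antisense gene Gm49540 overlap Mb on the opposite strand and were not analysed here.

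For Actn3 the values were 16.54, 16.35 and 15.65 in the Noggin-deficient libraries and 9.2 and 10.61 in the wild type libraries. As with Mb, the first wild type library was the lower of the pair, and no library of 1 group reached the other. The means were 16.2 ± 0.469 (SD, n = 3) and 9.91 ± 0.997 (SD, n = 2), so the Noggin-deficient mean was 1.63 times the wild type mean. The log2 difference was 0.70 (SE 0.060), and 7.82% of the tested genes had a higher one. In the GENCODE vM21 annotation no other gene overlaps Actn3.

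**Figure D1:**
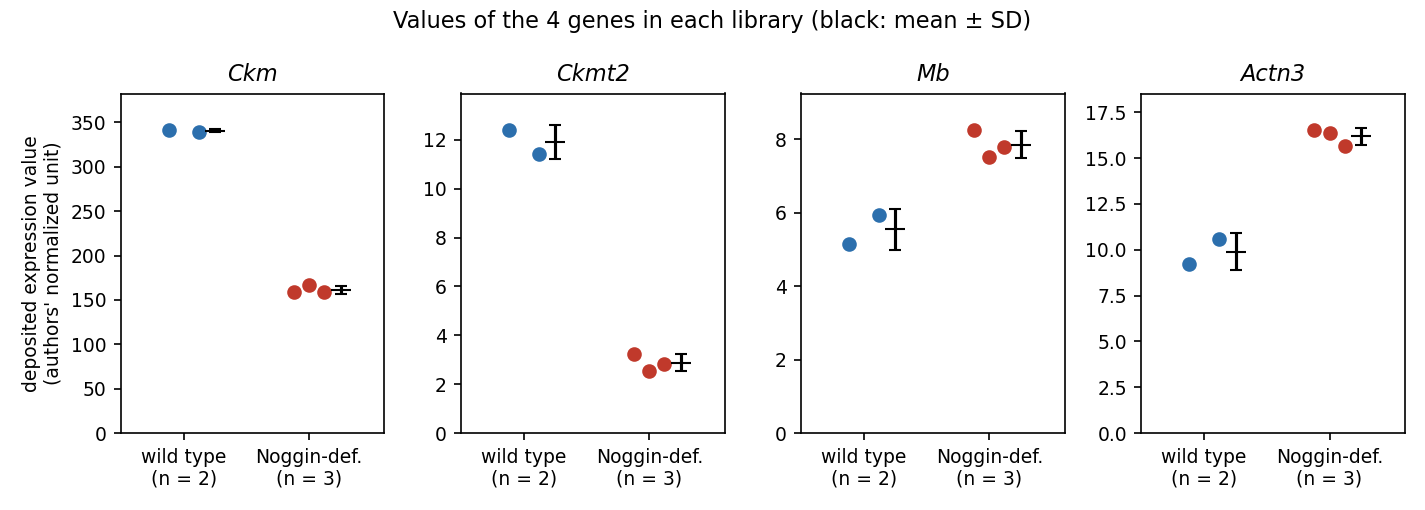
Deposited expression values (y axis, authors' normalized unit, from 0) of Ckm, Ckmt2, Mb and Actn3 in each wild type (blue, n = 2) and Noggin-deficient (red, n = 3) library, with the mean ± SD of each group in black. Noggin-deficient libraries are lower for Ckm and Ckmt2 and higher for Mb and Actn3, with no overlap between the groups in any panel.

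Apart from the pseudocount added to each value, ratios between the genes within a library do not depend on how libraries were scaled. All 6 ratios separated the groups. Each difference in a log2 ratio is the difference between the log2 changes on which the genes were selected. A pair whose genes differed in opposite directions therefore had to separate. Of all tested genes 99.3% had groups that did not overlap. Ratios of other gene pairs were not counted, so the separation cannot be read as particular to these pairs. The log2 ratio of Ckmt2 to Actn3 was -2.26, -2.56 and -2.37 in the Noggin-deficient libraries and 0.42 and 0.10 in the wild type libraries, a difference of -2.66 between the group means. In linear terms, with the pseudocount in both values, Ckmt2 stood at 1.20 times Actn3 in wild type and at 0.19 times in Noggin-deficient tissue. Only the difference between the groups can be read, since it is not known whether the unit is per length.

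The log2 ratio of Ckmt2 to Mb differed by -2.45 between the groups, that of Ckm to Actn3 by -1.77 and that of Ckm to Mb by -1.56. These are the pairs that set a creatine kinase against a gene that was higher. The pairs within each direction parted less. The ratio of Ckm to Ckmt2 was 4.81 ± 0.076 (SD, n = 2) in wild type and 5.70 ± 0.196 (SD, n = 3) in Noggin-deficient libraries, so the mitochondrial enzyme's gene was lower by 0.89 log2 units more than the cytosolic one's. The ratio of Mb to Actn3 differed by -0.21, the smallest difference of the 6 (-0.57 with the length trend described below removed), with the lowest wild type library at -0.81 and the highest Noggin-deficient one at -0.98.

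**Figure D2:**
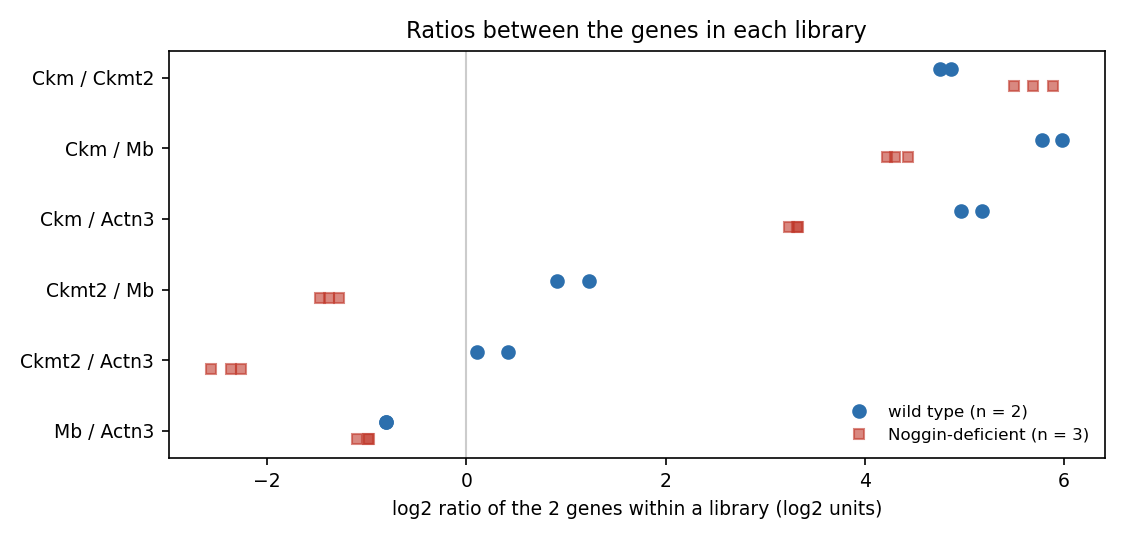
Log2 ratio of the values of 2 genes within a library (x axis, log2 units) for the 6 pairs of Ckm, Ckmt2, Mb and Actn3, in wild type (blue circles, n = 2) and Noggin-deficient (red squares, n = 3) libraries. The ratios of a creatine kinase gene to Mb or Actn3 differ by -1.56 to -2.66 between the group means, that of Mb to Actn3 by -0.21, or by -0.57 once the trend with transcript length is removed.

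The other genes of creatine and adenylate metabolism had lower values as well. Of the genes on this list other than Ckm and Ckmt2, 6 were tested and 6 were called lower, where 60.1% of all tested genes were called lower. Their median log2 change was -0.57, against -0.28 over all tested genes, and came to -0.01 with scaling by skeletal muscle genes, described below. Gatm, which makes the creatine precursor guanidinoacetate, was at 38.98, 40.03 and 38.07 in the Noggin-deficient libraries and at 62.52 and 61.87 in the wild type libraries, a log2 change of -0.67 (SE 0.030). Ckmt1, the ubiquitous mitochondrial creatine kinase, fell by 0.46 on the log2 scale, the muscle AMP deaminase Ampd1 by 0.92 and the adenylate kinase Ak1 by 0.58. All 6 of the other genes thus lay above Ckm, between -0.92 and -0.40 on the log2 scale, and Ckmt2 stood apart below them. Ckb, the brain-type creatine kinase, Gamt, which completes creatine synthesis, and the creatine transporter gene Slc6a8 were not analysed here.

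Around Mb, few genes of oxygen handling had values. Besides Mb, 3 of the listed genes were tested, of which Car3 was called higher, as were 37.9% of all tested genes, and Hif1a and Egln3 were called lower. Car3, the carbonic anhydrase of slow muscle, liver and fat, was at 133.28, 135.42 and 131.21 in the Noggin-deficient libraries and at 64.62 and 67.93 in the wild type libraries, a log2 change of 1.01 (SE 0.031). Hif1a, a subunit of the hypoxia-inducible factor, fell by 0.48 on the log2 scale. Egln3, a prolyl hydroxylase that marks that subunit for degradation, had a log2 change of -0.30, which was -0.04 (adjusted p = 0.43, limma) under median-of-ratios scaling. The globins Cygb and Ngb were not analysed here.

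In the values as deposited, Actn3 was higher while nearly all of its Z-disc partners fell. Of the alpha-actinin and Z-disc genes other than Actn3, 20 were tested, of which 19 were called lower, against 60.1% of all tested genes. Their median log2 change was -0.84. With scaling by skeletal muscle genes 11 of the 20 were called lower, against 12% of all tested genes, and 2 higher, with a median of -0.28. The gene called higher in the values as deposited was Ankrd2, of a stretch-responsive ankyrin repeat protein, at 0.60. Actn2, the alpha-actinin of all sarcomeres and the closest relative of Actn3 with values, was at 209.64, 216.1 and 211.71 in the Noggin-deficient libraries and at 320.64 and 315.59 in the wild type libraries. Its log2 change in the values as deposited was -0.58 (SE 0.029), opposite in direction to that of Actn3. Fhl1, a LIM protein of the sarcomere, fell by 1.11, Pdlim5, a PDZ-LIM protein that binds alpha-actinin, by 1.01 on the log2 scale, and Myoz1, a calsarcin of fast fibres, was at 24.9 ± 0.805 (SD, n = 3) against 50.2 ± 1.07 (SD, n = 2). Actn1 and Actn4, the non-muscle alpha-actinins, were not analysed here.

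The fast-fibre genes beside Actn3 had lower values. Of these, 12 were tested and 12 called lower, against 60.1% of all tested genes, with a median log2 change of -0.61. It came to -0.05 with scaling by skeletal muscle genes. Tnnt3, Tnni2, Tnnc2 and Myl1 of this list are also among the genes of that scaling. A median near 0 is thus in part built in. Besides Myoz1, the muscle enolase gene Eno3 fell from a wild type mean of 210.7 ± 3.08 (SD, n = 2) to 129.3 ± 2.62 (SD, n = 3). Atp2a1, the calcium pump of fast fibres, fell from 138.0 ± 1.41 (SD, n = 2) to 87.6 ± 1.89 (SD, n = 3). Of the slow-fibre genes, 9 of 10 tested were called lower and Ankrd2 higher, with a median log2 change of -0.54, which turned to 0.03 with that scaling. Mybpc1, of slow myosin-binding protein C, fell by 0.94, the slow myosin light chain gene Myl3 by 0.87 and Casq2, a calcium store protein, by 0.58 on the log2 scale. Whether the fast and slow lists differ was not tested.

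Few genes of ATP supply had values. Of 33 glycolysis and glycogen genes 13 were tested, 10 (76.9%) called lower, against 60.1% of all tested genes, and 3 higher, with a median log2 change of -0.43, which turned to 0.14 with scaling by skeletal muscle genes. Median-of-ratios scaling left 8 (61.5%) called lower, against 32.2% of all genes tested under that scaling. Pygm, the muscle glycogen phosphorylase, was at 44.3, 44.65 and 42.3 in the Noggin-deficient libraries and at 85.16 and 87.16 in the wild type libraries, a log2 change of -0.97 (SE 0.032). The 3 called higher were Gpd1, the cytosolic glycerol phosphate dehydrogenase, at 2.63, the regulatory kinase Pfkfb1 at 0.49 and the lactate exporter Slc16a3 at 0.41. Of 38 citric acid cycle, fatty acid and respiratory genes only 5 were tested, 4 called lower and 1 higher, with a median of -0.34, which turned to 0.22 with scaling by skeletal muscle genes. With libraries scaled by the median of ratios 1 of these 5 (20%) was called lower, against 32.2% of all genes tested. With upper-quartile scaling 2 (40%) were, against 41%. The muscle respiratory subunit genes Cox8b and Cox6a2 were at -0.40 and -0.34. Under median-of-ratios scaling they were at -0.14 and -0.07 (adjusted p = 0.37 and 0.076, limma), and with the length trend removed at -1.05 and -0.81. With that trend removed 4 of the 5 genes were called lower, against 36.8% of all genes tested, with a median of -0.50. The fatty acid carrier gene Cd36 was higher by 0.39.

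Of 28 regulators of these genes 15 were tested, 13 called lower and 1, the calcineurin-dependent factor Nfatc4, higher by 0.37, against 60.1% and 37.9% of all tested genes, with a median log2 change of -0.42, which turned to 0.15 with scaling by skeletal muscle genes. Esrrb was tested and not called. Myf6, a basic helix-loop-helix factor of the kind that binds E-boxes, fell by 0.92 and Tead1, which binds MCAT elements of muscle promoters, by 0.67 on the log2 scale. The MEF2 gene Mef2d was at 11.85, 12.06 and 11.61 in the Noggin-deficient libraries and at 17.83 and 17.11 in the wild type libraries. Mef2c had a log2 change of -0.29, which median-of-ratios scaling brought to -0.02 (adjusted p = 0.59, limma) and removal of the length trend to 0.06 (adjusted p = 0.065, limma). Ppargc1a, the coactivator of mitochondrial genes, was low throughout, at 0.64 ± 0.078 (SD, n = 3) and 0.885 ± 0.0071 (SD, n = 2) for Noggin-deficient and wild type. Its log2 change of -0.35 was -0.15 (adjusted p = 0.25, limma) with median-of-ratios scaling, and the call was lost with the length trend removed too. Mef2c and Ppargc1a were picked after their values were seen. With median-of-ratios scaling 7 of the 15 regulators (46.7%) were called lower, against 32.2% of all genes tested under that scaling.

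Over all 8 lists, 75 genes other than the 4 were tested, of which 67 (89.3%) were called lower, 7 higher and 1 was not called, with a median log2 change of -0.56. Over all tested genes 60.1% were called lower and 37.9% higher. With median-of-ratios scaling 51 (68.0%) of the 75 were called lower, against 32.2% of all genes, and with scaling by skeletal muscle genes 19 were called lower and 28 higher, with a median that turned to 0.01. In the values as deposited, 3 of the 75 had a lower log2 difference than Ckm and none lower than Ckmt2. Only 2, Gpd1 and Car3, had a higher one than Actn3, and 4 a higher one than Mb. The 4 genes thus sat at both edges of the lists, which follows in part from how they were chosen.

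**Figure D3:**
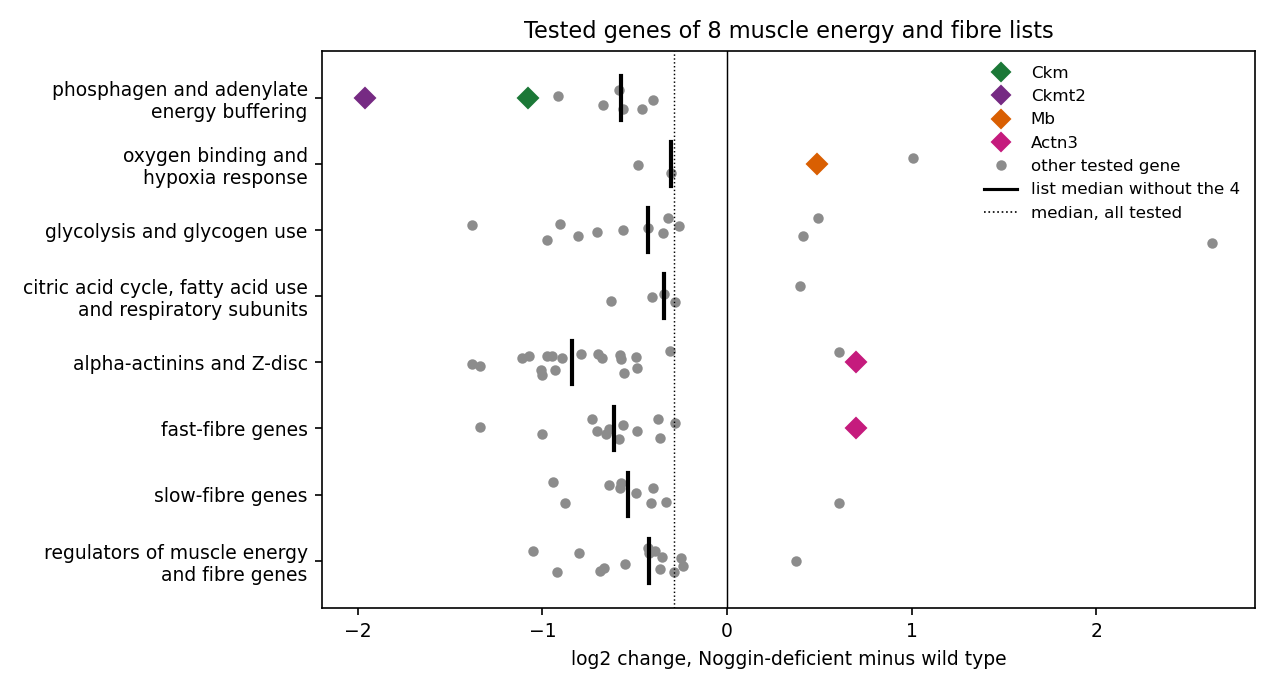
Log2 change, Noggin-deficient minus wild type (x axis), of every tested gene (grey points) on 8 lists of muscle energy and fibre genes (rows), with Ckm, Ckmt2, Mb and Actn3 as coloured diamonds, medians of the lists without the 4 as black bars and the median of all tested genes as a dotted line. The 8 medians lie below 0 with the values as deposited, though 5 of them turn above 0 with scaling by skeletal muscle genes, and Mb and Actn3 lie to the right of their lists' other members except Car3.

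The same 4 genes were set against the mean log2 value of the 12 skeletal muscle markers in each library. Whether this mean follows the muscle content was not tested. The markers fell unequally, with log2 changes from -0.28 for Myl1 to -0.95 for Neb. This scaling was chosen after seeing the data. The 12 markers were themselves called lower, with a median of -0.50 (9 of 12 and -0.23 with median-of-ratios scaling). Among them are Tnnt3, Tnni2, Tnnc2 and Myl1 of the fast-fibre list, Ttn and Neb of the Z-disc list, and Myf6 of the regulators. The scaled medians of these lists thus depend in part on their own genes. Per unit of the 12 markers, Ckm was at 0.06, 0.10 and 0.09 in the Noggin-deficient libraries. In the wild type libraries it was at 0.61 and 0.57, a difference of -0.51 log2 units between the groups. Ckmt2 differed by -1.40, Mb by 1.05 and Actn3 by 1.26. The groups of the 4 genes did not overlap, as for 99.3% of all tested genes in the values as deposited. That share was not counted with this scaling. The scaling subtracts 1 log2 value per library, so it raised the log2 difference of every gene by the same amount. That the difference of Ckm was smaller than in the deposited values, and those of Mb and Actn3 larger, follows from this and is not particular to them. With this scaling 84.4% of calls were higher, and the median log2 change over all tested genes was 0.28. In bulk tissue, fewer muscle cells and less RNA of a gene per cell cannot be told apart.

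Log2 change in these tables went with transcript length, and the 4 genes lie at different lengths. In the shortest eighth of the tested genes 67.1% were higher in Noggin-deficient libraries, and in the longest eighth 6.42%. Mb, with a longest transcript of 1104 bases, lies in the shortest eighth, Ckmt2, with 1486 bases, in the next, and Ckm and Actn3, with 2742 and 2887 bases, in the fourth. After removal of the trend Mb was at 0.20 (SE 0.067), well under its 0.48, whereas Ckm was at -1.02, Ckmt2 at -2.16 and Actn3 at 0.77. Mb has 6 protein-coding transcripts of 331 to 1104 bases, and with the median length in place of the longest it was at 0.32.

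**Figure D4:**
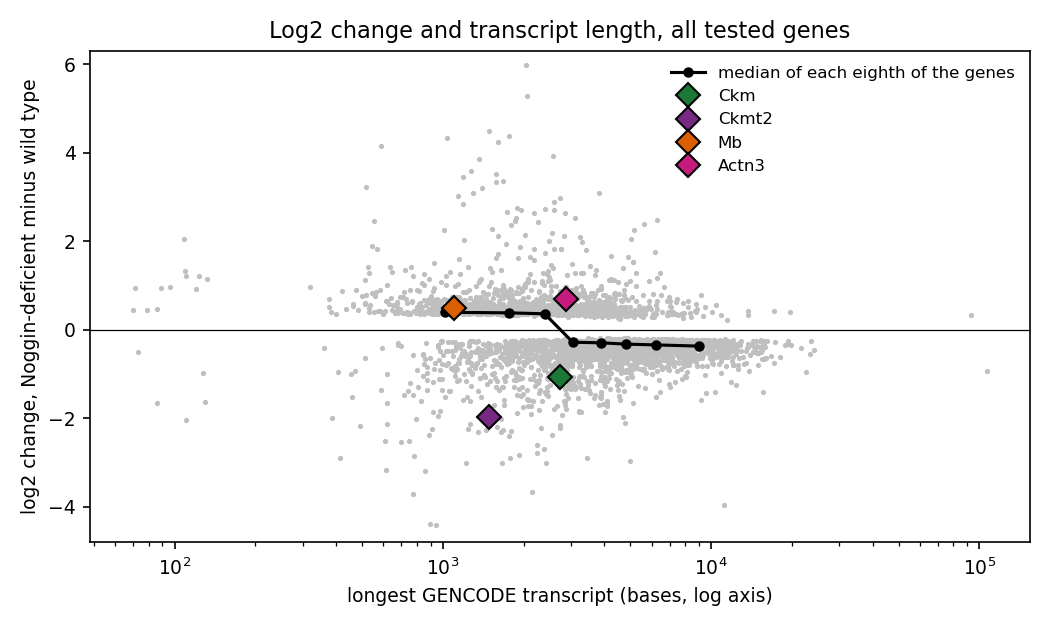
Log2 change, Noggin-deficient minus wild type (y axis), against the longest GENCODE transcript in bases (x axis, log scale) for the tested genes (grey), with the median of each eighth of the genes in black and the 4 genes as coloured diamonds. Mb at 0.48 lies near the median of its eighth at 0.40, and Ckmt2 at -1.96 lies far below the median of 0.38 at its length.

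Markers of other tissues that express some of these genes moved with the groups too. Over all tested genes 60.1% were called lower (32.2% with median-of-ratios scaling) and 37.9% higher. Of 21 heart muscle genes 8 besides Mb and Ckmt2 had values and 7 were tested, 4 called lower (2 with median-of-ratios scaling) and 3 higher. The 8 genes summed to 1359 to 1383 in the Noggin-deficient and 1785 to 1823 in the wild type libraries, mostly from Actc1, which embryonic skeletal muscle also expresses, and Sln. Tbx20, a heart transcription factor, was listed at 0 in at least 1 library. Of 19 adipocyte and brown fat genes 13 besides Ckmt2 had values, summing to 232.2 to 242.7 and 145.8 to 149.8. Of these 10 were tested, 4 called lower (1 with median-of-ratios scaling) and 6 higher. Fabp4 rose by 1.13 and Dgat2 fell by 1.20 on the log2 scale, and Ucp1, which defines brown fat, was listed at 0 in at least 1 library.

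The 16 liver genes with values summed to 136.7 to 138.3 in the Noggin-deficient and 13.5 to 14.9 in the wild type libraries. Of these, 14 were tested and 14 called higher, Alb and Afp among them. Over all tested genes 37.9% were called higher and 60.1% lower. Of the 16 liver genes, 6 were listed at 0 in some library. Epidermis genes summed to 1454 to 1509 and 3512 to 3544, with 22 of 22 tested called lower, Krt10 falling by 1.58 and Krt1 by 1.30 on the log2 scale. The 8 erythroid genes, Hbb-y and Hba-x among them, were all called higher (222.3 to 228.9 against 95.96 to 100.2), as were the 4 endothelial genes, Eng and Egfl7 among them (142.6 to 146.0 against 96.99 to 99.94). Of 13 tested neuron and Schwann cell genes 10 were called higher and 3, Erbb3 included, lower (62.0 to 64.0 against 47.9 to 48.7). Of 11 bone and cartilage genes 6 were called higher and 5 (45.5%) lower (3365 to 3378 against 4330 to 4424). Under median-of-ratios scaling 3 were called lower, against 32.2% of all genes tested. With the length trend removed 2 were, against 36.8%. Of the most abundant, Col1a1 was at -0.41 and Col2a1 at -0.29, and with the length trend removed neither was called (-0.07 and 0.00, adjusted p = 0.17 and 0.88, limma). The part of these tissues in the values of the 4 genes was not tested.

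The genes with profiles most like each of the 4 were found over the 5 libraries, as the smallest root mean square difference of log2 values centred on the wild type mean, taken over the 1711 tested genes that had a mean of 5 or more. For Ckm these included Evpl, of envoplakin, and Fhl1, at distances of 0.045 and 0.050. Evpl was at 22.97, 24.38 and 23.33 against 52.07 and 51.89 in wild type. For Ckmt2 they were Ly6g6c, Serpinb7, of a serpin, and Mal, of a membrane proteolipid, at larger distances of 0.11, 0.13 and 0.13, so no candidate lay as near to Ckmt2 as to the other 3 genes. For Mb they were Ccdc3, the adhesion molecule gene Icam2 and Cenpv at 0.026, 0.035 and 0.036. For Actn3 they were the homeobox gene Meox1 at 0.031, Fam195a at 0.047 and the chemokine gene Ccl11 at 0.050. Ccdc3, at 12.27, 11.34 and 11.87 against 8.06 and 8.84, showed the same lower first wild type library as Mb, as did Meox1 beside Actn3, at 18.21, 18.33 and 17.45 against 10.64 and 11.48. Both wild type libraries entered the distance, so this likeness follows from how the genes were picked.

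The directions of the 4 genes were the same in every alternative run, while their sizes moved with the scaling. Under median-of-ratios scaling all tested genes had a median log2 change of -0.03 in place of -0.28, which brought Ckm to -0.80, Ckmt2 to -1.70, Mb to 0.75 and Actn3 to 0.96. The share of calls that were higher was 38.7% with the values as deposited, 54.5% with that scaling, 48.4% with upper-quartile scaling, 48.8% with the length trend removed and 84.4% with scaling by skeletal muscle genes. Relative to the median of all genes, Ckm and Ckmt2 were lower and Mb and Actn3 higher under each of them.

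**Figure D5:**
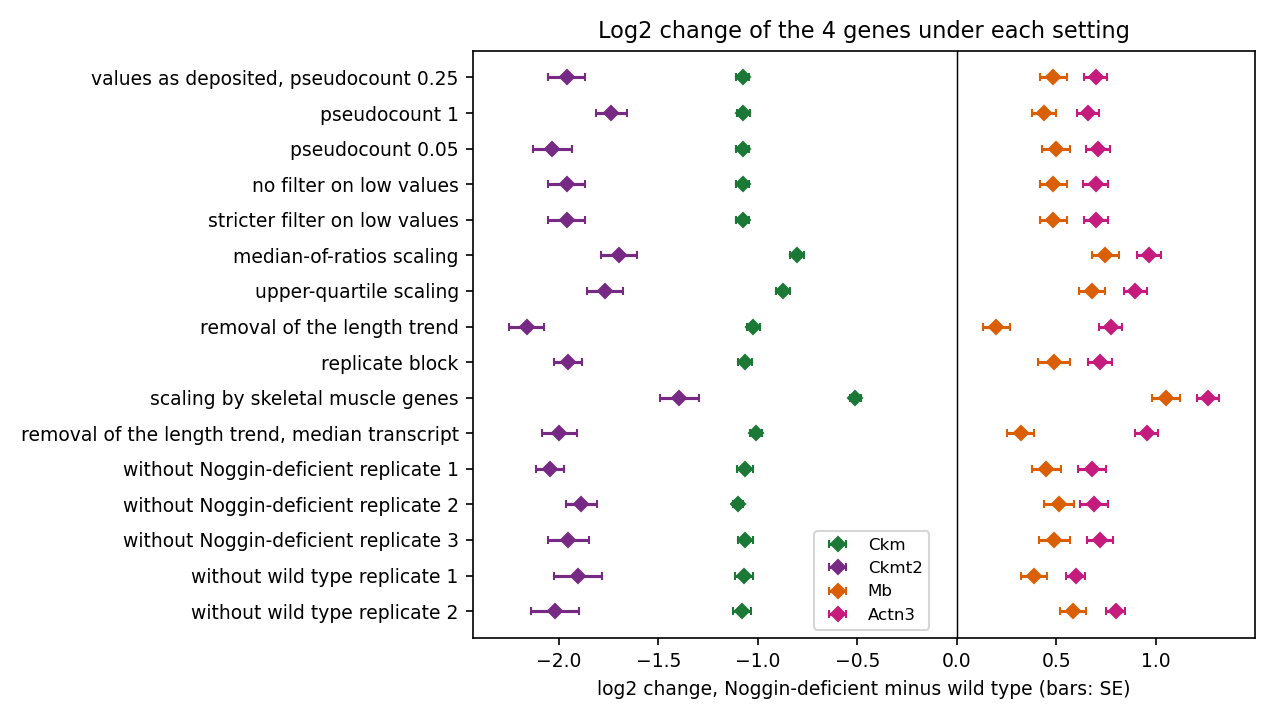
Log2 change, Noggin-deficient minus wild type (x axis, bars are SE), of Ckm, Ckmt2, Mb and Actn3 under each processing setting (rows). No diamond crosses 0, and the widest range is that of Mb, from 0.20 after removal of the length trend to 1.05 with scaling by skeletal muscle genes.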

How the data were processed

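RNA from forelimb muscle was made into stranded mRNA libraries, per the labels' protocols. The authors deposited 1 table per sample with a normalized expression signal for 4743 genes. STAR 2.4.2a, DESeq2 and mm9 are named, without a role, in the submitters' processing notes. The sources used here do not give how reads were counted and normalized, and depth is unknown, so no counting interval was given.

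Values were tested as log2(value + 0.25) with limma 3.58.1 (R 4.3.3), with an intensity trend and no covariate, over the 3913 genes that reached 0.5 in 2 or more libraries. A gene was called where its p, adjusted by Benjamini-Hochberg, was under 0.05. The log2(value + 0.25) scale understates the change of low genes. The fit was tested on simulated data. The members, gene lists and tests were chosen with earlier results of these data known, so no list was given a set test. Transcript lengths came from GENCODE vM21 for 4462 genes (94.1%), and list genes were matched by symbol, 208 of 366 entries having values. Named genes were the members, their relatives, Nog, the 3 genes per pathway list with the largest called change and a mean of at least 5, the 2 most abundant genes per marker list and the 3 genes most alike to each member. Pathway list members called higher, Mef2c, Ppargc1a and Acta1 were added after values were seen. Alternatives were other pseudocounts, filters, scalings, removal of the length trend, a replicate block, no intensity trend, a test against 1.5-fold and leaving out each library. A few genes that this rule names are not reported here.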

Additional observations from a re-analysis of the deposited data

How the results depend on the processing

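No alternative reversed the direction of any of the 4 genes or 6 ratios. Ckm, Ckmt2, Mb and Actn3 were at -0.80, -1.70, 0.75 and 0.96 with median-of-ratios scaling, and at -0.87, -1.77, 0.68 and 0.90 with upper-quartile scaling. After removal of the length trend Ckm, Ckmt2 and Mb were at -1.02, -2.16 and 0.20, and with median transcript lengths, added after seeing the data, Ckm, Mb and Actn3 were at -1.01, 0.32 and 0.95. With scaling by skeletal muscle genes the 4 were at -0.51, -1.40, 1.05 and 1.26. A pseudocount of 1 gave -1.74 for Ckmt2, and 0.66, -2.17 and -2.39 for the ratios of Ckm to Ckmt2, Ckmt2 to Mb and Ckmt2 to Actn3. Removal of the length trend gave 1.14 for Ckm to Ckmt2, -1.22 for Ckm to Mb, -2.94 for Ckmt2 to Actn3 and -0.57 for Mb to Actn3.

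Leaving out each replicate in turn gave 0.39 to 0.58 for Mb, 0.60 to 0.80 for Actn3, -1.88 to -1.67 for Ckm to Actn3 and -2.60 to -2.29 for Ckmt2 to Mb, with both ends from leaving out a wild type library, where the lone wild type sample is assumed to vary like the others. The calls were 3836, and 3583 to 3780 with a library left out. With the replicate block 3772 genes were called. Whether same-numbered samples were paired is not known. Their deviations from the group means correlated at -0.13 for number 1 and -0.06 for number 2. With 2 wild type samples those deviations mirror each other, so the correlations cannot decide it.

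Against a 1.5-fold change 569 genes passed, 404 of them lower (10.3% of the 3913 tested) and 165 higher. Without the 4 genes, 1 of 6 phosphagen, 4 of 13 glycolysis and 11 of 20 Z-disc genes were then called lower by limma. So were 3 of 12 fast-fibre, 2 of 10 slow-fibre and 2 of 15 regulator genes. Of 3 oxygen genes 1 was called higher, and of 13 glycolysis genes 1. The count was 0 for oxygen genes called lower, citric acid cycle genes in both directions, and Z-disc, fast-fibre, slow-fibre and regulator genes called higher, and it was 0 in each at an unadjusted p under 0.05 too. Median-of-ratios scaling left 1 oxygen, 1 citric acid cycle and 7 regulator genes called lower, against 32.2% of all genes tested. Upper-quartile scaling left 2 citric acid cycle genes, against 41%. Removal of the length trend called 2 regulators higher, and 1309 of all 3737 genes tested. Of 270 counts for marker lists under the alternatives, 18 moved by over 1.5 times, 9 of them in the test against 1.5-fold. Depth is unknown and there are 2 wild type samples, which limits the precision of every value.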
